A study of Mus musculus with 14 samples.

Results

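The genes described here are 38 mouse genes of glycolysis, pyruvate handling and the response to low oxygen, chosen by name. They were chosen with earlier results of these data known. Their shares of called genes are therefore given beside those of all genes as description and were not tested. Of these, 35 had a probe set annotated to that gene alone and were measured, out of 19935 genes tested. Gapdh was annotated only on probe sets shared with other genes, and Gpi1 and Eno1 were matched to no named probe set here, so these 3 genes are not reported. A gene with several probe sets was represented by the one with the highest mean over the 14 arrays. Embryonic fibroblasts of ICR mice were grown in medium for mouse embryonic stem cells with feeder cells removed before RNA extraction, per the labels' protocols. They had been transduced with SKO and an empty vector (SKO+Flag), with SKO and HDAC7 (SKO+HDAC7), with SKO and MEF2C (SKO+MEF2C), or with GFP, and were lysed at day 6 or day 10. The labels do not spell out SKO, usually an abbreviation of Sox2, Klf4 and Oct4, which are used to reprogram somatic cells. HDAC7 belongs to the class IIa histone deacetylases, which bind and repress MEF2C and related transcription factors. Each SKO group had 2 Affymetrix arrays per day and GFP had 1 per day, 14 in all. The titles and group fields agree on this; the free-text description, the same for every sample, names other cells and was not used. The labels give neither the promoter that drove the transgenes nor the share of cells transduced, and nothing says that numbered experiments were separate cultures. The p-values therefore measure only the spread between arrays, which may be technical.

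Glycolysis converts glucose to pyruvate in the cytosol and yields ATP without oxygen; pyruvate is then reduced to lactate and exported, or enters the mitochondria. Several steps are encoded by paralogous genes whose enzymes differ in kinetics and tissue distribution. When oxygen is scarce, the transcription factor subunit HIF-1 alpha escapes prolyl hydroxylation and degradation, and HIF binds short elements with the core ACGTG or GCGTG near many glycolytic and stress genes. Pluripotent stem cells are known for a high glycolytic flux, and reprogramming of fibroblasts is known to shift metabolism from oxidation towards glycolysis.

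The arrays carried the factors their labels name: Hdac7 was at 11.16 to 11.38 with SKO+HDAC7 and at 6.78 to 7.44 elsewhere, Mef2c was at 9.48 to 9.93 with SKO+MEF2C and at 6.31 to 6.81 elsewhere, and Pou5f1 was at 11.70 to 12.10 in the SKO groups and at 5.24 and 5.18 with GFP. The probe sets of Sox2 and Klf4 did not separate the groups: Sox2 was at 5.04 to 5.37 with SKO and at 4.93 and 5.27 with GFP, and Klf4 at 8.80 to 9.18 with SKO and at 8.93 and 8.66 with GFP. All values here are deposited log2 expression values, and each difference of log2 values is followed by its standard error. The 12 fibroblast markers had mean values of 10.32 and 10.90 on the GFP arrays and between 9.14 and 9.58 on the SKO arrays. The 8 pluripotency markers had mean values of 5.31 and 5.35 with GFP and between 5.06 and 5.35 with SKO. At most 1 of these 8 lay above the array median on any array. Between the 2 arrays of an SKO group, Pearson's r across probe sets was 0.995 to 0.997. Of the 35 measured genes, 31 lay above the array median on all 14 arrays and 1 (Car9) lay below it on all 14. Within a group, the SD of a gene's replicate values had a median of 0.08 over the 35 genes, from 0.03 for Pkm to 0.14 for Pfkfb4. Below, a gene is said to rise or fall where its limma Benjamini-Hochberg adjusted p over all 19935 genes is under 0.05. Lists of values on single arrays give day 6 before day 10, with 1 array per day for GFP and 2 for each SKO group. Probe sets differ in brightness, so levels are compared between arrays and never between genes. In RNA from whole cultures, fewer cells of a type and less RNA per cell cannot be told apart.

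Promoter sequence is shown for 6 genes among those that differed most between vectors or days, as the 250 bases before the annotated start. The windows come from RefSeq (build GRCm38.p6), 5′ to 3′ on the gene's strand, and capitals mark the letters ACGTG or GCGTG on either strand, the core that HIF is known to bind. They lie at chr4:119108495-119108744 on the plus strand for Slc2a1, chr11:120948817-120949066 on the plus strand for Slc16a3, chr19:4510222-4510471 on the plus strand for Pcx (the first of 2 listed starts), chr11:78322823-78323072 on the plus strand for Aldoc (the first of 2), chr12:54203875-54204124 on the minus strand for Egln3 and chr7:110627407-110627656 on the plus strand for Adm.
Slc2a1: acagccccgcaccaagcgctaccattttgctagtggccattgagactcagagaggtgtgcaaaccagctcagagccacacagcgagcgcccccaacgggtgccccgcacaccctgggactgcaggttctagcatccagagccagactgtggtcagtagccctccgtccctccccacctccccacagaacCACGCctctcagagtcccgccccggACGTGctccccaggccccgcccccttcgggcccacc
Slc16a3: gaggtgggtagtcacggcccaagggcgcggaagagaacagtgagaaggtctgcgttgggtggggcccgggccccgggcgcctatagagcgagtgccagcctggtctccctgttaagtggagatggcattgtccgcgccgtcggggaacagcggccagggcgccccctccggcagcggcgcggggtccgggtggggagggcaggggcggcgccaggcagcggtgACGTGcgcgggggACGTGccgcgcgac
Pcx: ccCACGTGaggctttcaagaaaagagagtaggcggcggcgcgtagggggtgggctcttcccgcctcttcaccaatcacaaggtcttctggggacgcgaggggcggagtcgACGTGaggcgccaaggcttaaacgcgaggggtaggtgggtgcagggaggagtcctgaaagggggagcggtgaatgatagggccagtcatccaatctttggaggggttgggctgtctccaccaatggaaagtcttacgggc
Aldoc: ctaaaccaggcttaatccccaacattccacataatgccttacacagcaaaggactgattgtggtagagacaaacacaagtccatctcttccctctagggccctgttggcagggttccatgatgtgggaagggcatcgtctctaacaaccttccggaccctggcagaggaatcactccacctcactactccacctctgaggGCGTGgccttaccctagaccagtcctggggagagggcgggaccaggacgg
Egln3: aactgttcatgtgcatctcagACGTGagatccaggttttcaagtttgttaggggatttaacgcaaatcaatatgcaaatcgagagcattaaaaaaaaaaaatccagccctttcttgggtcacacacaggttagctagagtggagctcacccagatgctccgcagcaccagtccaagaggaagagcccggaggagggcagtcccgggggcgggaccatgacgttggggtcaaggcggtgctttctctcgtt
Adm: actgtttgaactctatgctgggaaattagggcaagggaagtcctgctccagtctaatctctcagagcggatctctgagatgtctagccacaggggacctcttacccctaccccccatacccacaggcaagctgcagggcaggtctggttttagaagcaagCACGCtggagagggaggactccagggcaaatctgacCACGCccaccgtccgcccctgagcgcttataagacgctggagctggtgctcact

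RefSeq held 50 such windows for 35 of the 38 listed genes; Slc2a3, Ndrg1 and Stc1 had no entry. ACGTG was found on either strand in 24 of the 50 windows (48.0%) and in 16.6% of all 32851 windows of that length, and GCGTG in 26 (52.0%) against 28.2%. CACGTG, which holds ACGTG on both strands and is also the E-box core, was found in 8 of the 50 (16.0%) against 6.0%. Some windows of the same gene overlap, so a match can be counted more than once. Counted by gene, ACGTG was found for 21 of the 35 and GCGTG for 22. The genes were chosen by name and include known HIF targets, and the shares were not tested. Among the printed windows, Slc2a1 holds 1 ACGTG from base -36 to base -32 before the start and 1 GCGTG from -61, Slc16a3 holds 2 (from -27 and from -14), and Egln3 holds 1 from -229. Pcx holds CACGTG near its far end and a further ACGTG from -140, and its second listed start has no match to either core. Aldoc and Adm hold only GCGTG, 1 and 2 times. These matches describe the letters of the windows; no binding was measured.

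With SKO most of these genes were lower than with GFP, while several paralogs of the same steps were higher. Averaged over the days (4 arrays against 2), 7 of 35 genes rose and 20 fell, 77.1% in all, where 35.7% of all genes tested were called (17.5% higher and 18.2% lower). Their median difference was -0.31, and that of all genes -0.04. Brighter genes were called more often: among the 9967 genes above the median level, 56.3% were called, and 26 of the 32 members among them (81.2%). The fibroblast marker list moved with this comparison (10 of 12 lower, 0 higher) and so did the 8 epithelial markers (6 higher, 0 lower; mean level 5.57 to 5.70 with GFP and 6.05 to 6.84 with SKO+Flag). Their part in these differences was not tested. By day, 4 rose and 20 fell at day 6 (24.1% of all genes called, 13.2% higher and 10.8% lower), and 6 rose and 15 fell at day 10 (26.9%, 13.7% and 13.2%). The GFP arrays, 1 per day, are assumed to vary like the other groups.

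The glucose transporters went opposite ways with SKO. Slc2a1 encodes GLUT1, the common transporter of proliferating cells, and read 9.45 and 9.07 with GFP, 8.27, 8.24, 8.66 and 8.56 with SKO+Flag, 8.42, 8.49, 9.56 and 9.69 with SKO+HDAC7, and 8.32, 8.20, 8.51 and 8.55 with SKO+MEF2C. All SKO+Flag and SKO+MEF2C arrays were below both GFP arrays, whereas SKO+HDAC7 at day 10 was above them. Slc2a1 fell by 0.83 with SKO+Flag (-0.83 ± 0.06, limma adjusted p = 8.2e-07; 1.78-fold). Slc2a3, which encodes the high-affinity transporter GLUT3, read 6.12 and 6.21 with GFP, 8.06, 8.05, 8.46 and 8.59 with SKO+Flag, 8.31, 8.26, 8.83 and 8.997 with SKO+HDAC7, and 7.58, 7.60, 7.75 and 7.71 with SKO+MEF2C. All 12 SKO arrays were above both GFP arrays, and among them the SKO+HDAC7 arrays were highest and the SKO+MEF2C arrays lowest at each day. It was 4.37-fold higher with SKO+Flag than with GFP (2.13 ± 0.06, limma adjusted p = 4.8e-10), the largest rise among the 35 genes as the mean of both days.

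The phosphofructokinase genes, which encode subunits of the committed enzyme of glycolysis, also split. Pfkl, the liver-type subunit, read 8.92 and 8.61 with GFP, 7.40, 7.50, 8.02 and 7.78 with SKO+Flag, 7.46, 7.36, 7.88 and 7.91 with SKO+HDAC7, and 7.51, 7.56, 7.89 and 7.89 with SKO+MEF2C. Every SKO array was below both GFP arrays, and Pfkl fell 2.13-fold with SKO+Flag (-1.09 ± 0.07, limma adjusted p = 3e-07). Pfkp, the platelet-type subunit, read 7.52 and 7.08 with GFP, 8.54, 8.54, 8.39 and 8.40 with SKO+Flag, 8.52, 8.47, 8.27 and 8.25 with SKO+HDAC7, and 8.99, 8.88, 8.83 and 8.90 with SKO+MEF2C. Every SKO array was above both GFP arrays, with SKO+MEF2C highest, and Pfkp rose 2.25-fold with SKO+Flag (1.17 ± 0.05, limma adjusted p = 1.3e-08). Pfkm, the muscle-type subunit, ranged from 7.29 to 7.84 over all arrays and did not pass in this comparison (-0.08 ± 0.06, limma adjusted p = 0.28). Pfkfb3, a bifunctional enzyme that makes the allosteric activator of phosphofructokinase, read 7.05 and 6.99 with GFP, 6.54, 6.61, 6.40 and 6.31 with SKO+Flag, 6.48, 6.38, 6.33 and 6.43 with SKO+HDAC7, and 6.52, 6.61, 6.49 and 6.59 with SKO+MEF2C. Every SKO array was below both GFP arrays (-0.55 ± 0.06, limma adjusted p = 2.8e-05), while Pfkfb4 stayed between 5.98 and 6.50 and did not pass (0.24 ± 0.10, limma adjusted p = 0.089).

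Aldolase, which splits the fructose bisphosphate, showed another such pair. Aldoa, the main aldolase of muscle and most other cells, read 11.34 and 11.08 with GFP, 10.69, 10.65, 10.54 and 10.71 with SKO+Flag, 10.81, 10.90, 11.07 and 11.15 with SKO+HDAC7, and 10.89, 10.85, 10.95 and 10.99 with SKO+MEF2C. With SKO+Flag all 4 arrays were below both GFP arrays (-0.56 ± 0.06, limma adjusted p = 2e-05). Aldoc, the brain-type aldolase, read 6.02 and 5.89 with GFP, 6.25, 6.07, 7.51 and 7.58 with SKO+Flag, 6.43, 6.38, 7.84 and 8.19 with SKO+HDAC7, and 6.41, 6.43, 7.46 and 7.37 with SKO+MEF2C. At day 6 the SKO+Flag difference from GFP was 0.14 ± 0.13 (limma adjusted p = 0.51), and at day 10 it was 1.65 ± 0.13 (3.14-fold, limma adjusted p = 1.9e-06). Of the hexokinases, which trap glucose in the cell, Hk2 ranged from 7.24 to 8.03 and rose by 0.28 with SKO+Flag (limma adjusted p = 0.0084; 0.051 after quantile normalization). The brighter Hk1 probe set, which stands for Hk1 in the counts, lists no RefSeq mRNA and may not measure Hk1. It did not pass (-0.09 ± 0.08, limma adjusted p = 0.42). The Hk1 probe set that does list RefSeq mRNAs ranged from 7.47 to 8.20 and gave 0.29 ± 0.07 (limma adjusted p = 0.0056), so the call for Hk1 depends on the probe set.

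**Figure D1:**
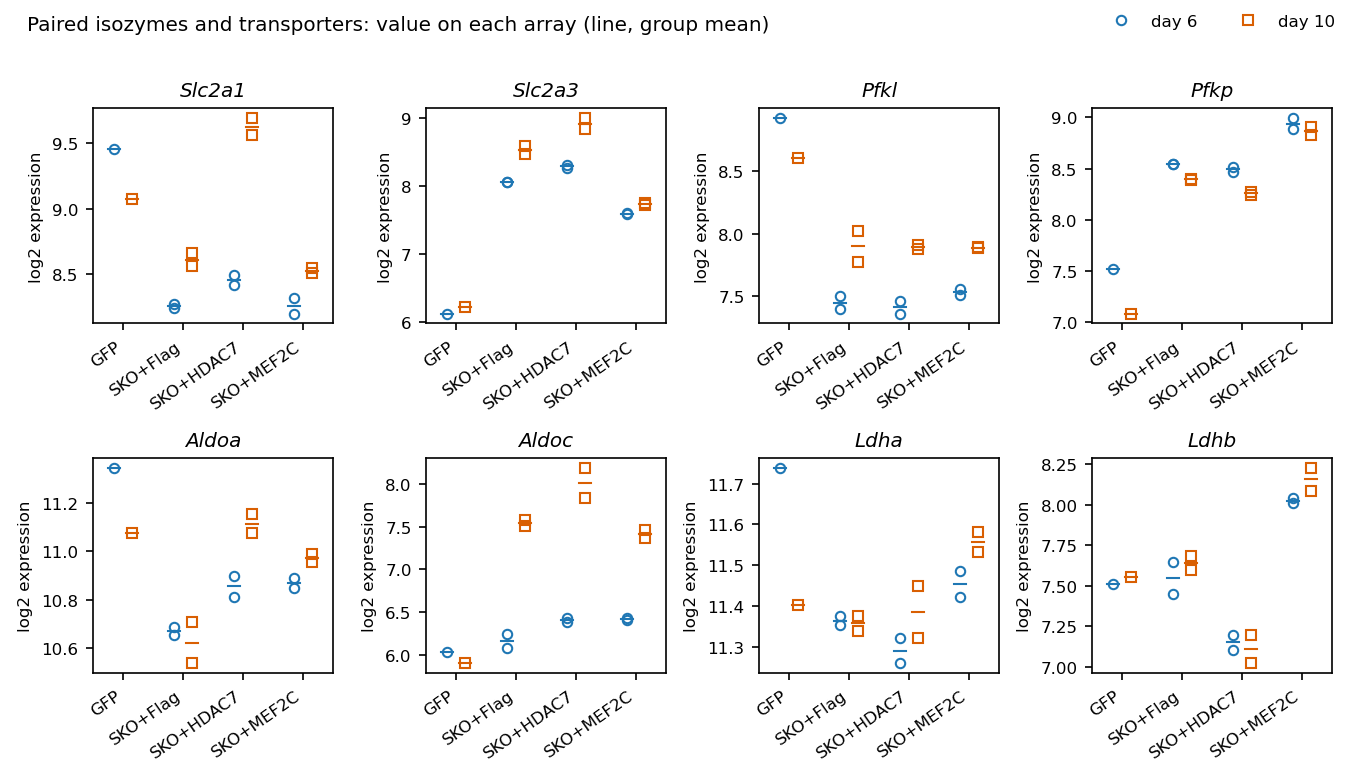
Log2 expression on each array (y axis) for 4 pairs of genes that encode alternative transporters or isozymes, by vector (x axis); circles are day 6, squares are day 10, and short lines are group means. GFP lies above SKO+Flag for Slc2a1, Pfkl and Aldoa and below it for Slc2a3 and Pfkp, while Ldhb separates SKO+MEF2C (8.01 to 8.23) from SKO+HDAC7 (7.02 to 7.20).

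In lower glycolysis, 4 of the 5 measured genes fell with SKO+Flag and 1 rose, against 18.2% and 17.5% of all genes. Tpi1, triosephosphate isomerase, read 10.91 and 10.61 with GFP, 10.07, 10.06, 10.41 and 10.44 with SKO+Flag, 10.14, 10.36, 10.62 and 10.70 with SKO+HDAC7, and 9.94, 10.14, 10.29 and 10.27 with SKO+MEF2C. All SKO+Flag arrays were below both GFP arrays (-0.52 ± 0.07, limma adjusted p = 0.00019). Pgam1, phosphoglycerate mutase, read 9.85 and 9.40 with GFP, 9.16, 9.26, 9.19 and 9.01 with SKO+Flag, 9.13, 9.07, 9.15 and 9.14 with SKO+HDAC7, and 9.40, 9.37, 9.33 and 9.28 with SKO+MEF2C, and fell by 0.47 (limma adjusted p = 8.5e-05). Eno2, the neuronal enolase, read 7.58 and 7.30 with GFP, 6.43, 6.72, 6.66 and 6.70 with SKO+Flag, 6.63, 6.47, 6.94 and 6.84 with SKO+HDAC7, and 6.63, 6.61, 6.92 and 6.73 with SKO+MEF2C, with every SKO array below both GFP arrays (-0.81 ± 0.09, limma adjusted p = 2e-05). Pgk1, which makes the first ATP of the pathway, ranged from 10.66 to 11.13 and fell by 0.31 (limma adjusted p = 0.0016). Pkm, pyruvate kinase, ranged from 10.38 to 10.94 and was higher by 0.19 (limma adjusted p = 0.011) in 3 of 4 pairs of arrays of the same day. That call was lost with the other Pkm probe set, which lists RefSeq mRNAs (0.11, limma adjusted p = 0.22).

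The lactate transporter genes Slc16a3 and Slc16a1 were lower with SKO+Flag than with GFP. Of the pyruvate dehydrogenase kinases, Pdk1 and Pdk4 fell and Pdk2 and Pdk3 did not pass. Slc16a3 encodes MCT4, a lactate exporter of glycolytic cells, and read 8.69 and 7.94 with GFP, 6.75, 6.80, 7.20 and 7.19 with SKO+Flag, 6.72, 6.71, 7.68 and 7.68 with SKO+HDAC7, and 6.72, 6.98, 7.19 and 7.08 with SKO+MEF2C. Every SKO array was below the GFP array of its day, and the fall with SKO+Flag was 2.52-fold (-1.33 ± 0.07, limma adjusted p = 4.9e-08). Slc16a1, the monocarboxylate transporter MCT1, read 8.50 and 8.40 with GFP, 7.66, 7.71, 7.84 and 7.87 with SKO+Flag, 8.04, 7.97, 8.27 and 8.50 with SKO+HDAC7, and 7.60, 7.66, 7.69 and 7.68 with SKO+MEF2C. It fell by 0.67 with SKO+Flag (limma adjusted p = 8.2e-06), and among the SKO arrays those of SKO+HDAC7 at day 10 came nearest to GFP. Ldha, which makes lactate from pyruvate, ranged from 11.26 to 11.74 and fell by 0.21 (limma adjusted p = 0.011). Ldhb, the subunit common in oxidative tissue, did not pass (0.06 ± 0.08, limma adjusted p = 0.57).

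The pyruvate dehydrogenase kinases keep pyruvate out of the mitochondrial oxidation route. Pdk4 read 6.33 and 6.47 with GFP, 5.29, 5.02, 4.98 and 5.03 with SKO+Flag, 5.16, 5.04, 5.01 and 5.002 with SKO+HDAC7, and 5.26, 5.33, 5.21 and 5.18 with SKO+MEF2C. All 12 SKO arrays lay below their array medians and both GFP arrays above theirs, so the 2.5-fold fall with SKO+Flag (-1.32 ± 0.07, limma adjusted p = 8.3e-08) is a lower bound if the SKO values are at background. Pdk1, a HIF target, read 7.26 and 7.11 with GFP, 6.71, 6.64, 6.85 and 6.99 with SKO+Flag, 6.02, 6.25, 6.87 and 7.19 with SKO+HDAC7, and 6.98, 6.90, 7.10 and 7.11 with SKO+MEF2C, and fell by 0.39 with SKO+Flag (limma adjusted p = 0.0069). Pdk2 (6.41 to 7.10) and Pdk3 (8.21 to 8.80) had higher means with SKO+Flag than with GFP but did not pass (limma adjusted p of 0.13 and 0.14). Pcx, pyruvate carboxylase, which feeds pyruvate into oxaloacetate, did not pass either (-0.01 ± 0.07, limma adjusted p = 0.96).

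Of the 10 hypoxia response genes, 7 fell and 2 rose with SKO+Flag, where 18.2% of all genes fell and 17.5% rose. Hif1a, the oxygen-regulated HIF subunit, read 10.19 and 10.23 with GFP, 9.24, 9.15, 8.87 and 9.23 with SKO+Flag, 9.04, 9.18, 8.996 and 9.05 with SKO+HDAC7, and 9.12, 9.21, 9.20 and 9.25 with SKO+MEF2C. Every SKO array was below both GFP arrays (-1.09 ± 0.09, limma adjusted p = 2.3e-06; 2.12-fold), and the 12 SKO arrays spanned 8.87 to 9.25. Adm, the vasodilator peptide adrenomedullin, read 8.99 and 9.28 with GFP, 7.97, 7.90, 6.92 and 6.99 with SKO+Flag, 7.59, 7.51, 6.48 and 6.44 with SKO+HDAC7, and 8.25, 8.16, 7.76 and 7.73 with SKO+MEF2C. All SKO arrays were below both GFP arrays, and the fall with SKO+Flag was 3.23-fold (-1.69 ± 0.05, limma adjusted p = 1e-09), the largest among the 35 genes as the mean of both days. P4ha1 and P4ha2 encode catalytic subunits of the prolyl hydroxylase that matures collagen. P4ha1 read 9.29 and 9.58 with GFP, 8.20, 8.24, 8.29 and 8.21 with SKO+Flag, 7.83, 7.84, 8.06 and 8.21 with SKO+HDAC7, and 8.47, 8.30, 8.39 and 8.43 with SKO+MEF2C. P4ha2 read 7.81 and 8.30 with GFP, 7.03, 7.07, 6.51 and 6.51 with SKO+Flag, 6.84, 6.78, 6.37 and 6.62 with SKO+HDAC7, and 7.07, 7.14, 6.91 and 6.94 with SKO+MEF2C. Both were below GFP on every SKO array, with differences of -1.20 ± 0.06 and -1.27 ± 0.07 for SKO+Flag (limma adjusted p of 6.3e-08 and 6.1e-08).

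Bnip3, which marks mitochondria for removal, read 8.94 and 8.63 with GFP, 7.62, 7.84, 8.05 and 8.20 with SKO+Flag, 7.25, 7.34, 8.13 and 8.45 with SKO+HDAC7, and 7.87, 7.93, 8.37 and 8.33 with SKO+MEF2C. All SKO arrays were below both GFP arrays (-0.85 ± 0.09, limma adjusted p = 2.1e-05). For SKO+Flag against GFP the other Bnip3 probe set gave -0.54 as the mean of both days. At day 10 it gave -0.21 where the first gave -0.50. Ndrg1, a stress-induced gene, read 7.69 and 7.45 with GFP, 7.19, 7.11, 7.29 and 7.26 with SKO+Flag, 7.52, 7.59, 8.09 and 8.05 with SKO+HDAC7, and 7.38, 7.25, 7.46 and 7.51 with SKO+MEF2C; the SKO+Flag arrays were below both GFP arrays (-0.36 ± 0.06, limma adjusted p = 0.00041), while the SKO+HDAC7 arrays at day 10 were above them. Car9, a carbonic anhydrase and classical hypoxia marker, stayed between 4.88 and 5.30, below the array medians throughout, so that its difference of -0.21 (limma adjusted p = 0.015; 0.081 in a fit to the compared groups alone) is that of a dim probe set. Ankrd37, another HIF target, ranged from 5.66 to 6.34 and did not pass (-0.03 ± 0.08, limma adjusted p = 0.84).

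Egln3 and Stc1 were higher with SKO. Egln3 encodes PHD3, a prolyl hydroxylase that acts on HIF and is itself induced by it, and read 6.29 and 5.81 with GFP, 7.21, 7.23, 8.63 and 8.66 with SKO+Flag, 6.99, 7.18, 8.73 and 8.88 with SKO+HDAC7, and 6.67, 6.73, 7.62 and 7.75 with SKO+MEF2C. All SKO arrays were above both GFP arrays, and the rise with SKO+Flag was 1.9-fold at day 6 (0.93 ± 0.10, limma adjusted p = 3.5e-05) and 7.13-fold at day 10 (2.83 ± 0.10, limma adjusted p = 4.3e-09). Stc1, the secreted hormone stanniocalcin, read 5.94 and 5.83 with GFP, 7.44, 7.24, 5.93 and 6.11 with SKO+Flag, 6.90, 6.91, 5.54 and 5.53 with SKO+HDAC7, and 7.53, 7.65, 6.87 and 6.79 with SKO+MEF2C. It was 2.63-fold higher with SKO+Flag at day 6 (1.40 ± 0.10, limma adjusted p = 1.9e-06) and differed by 0.19 ± 0.10 at day 10 (limma adjusted p = 0.22). With SKO+HDAC7 at day 10 it was below both GFP arrays and below the array medians.

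The effect of SKO changed between days for 10 of the 35 genes (28.6%), where 5.06% of all genes tested changed (1.9% upwards and 3.16% downwards). The difference between SKO+Flag and GFP shifted upwards from day 6 to day 10 for Egln3 (1.91 ± 0.14, limma adjusted p = 2.3e-05), Aldoc (1.52 ± 0.18, limma adjusted p = 0.00064) and Slc16a3 (1.17 ± 0.14, limma adjusted p = 0.00065), and also for Pfkl, Slc2a1, Tpi1 and Pkm, by 0.76, 0.73, 0.66 and 0.40. It shifted downwards for Adm (-1.28 ± 0.11, limma adjusted p = 6.1e-05), Stc1 (-1.21 ± 0.14, limma adjusted p = 0.00066) and P4ha2 (-1.03 ± 0.13, limma adjusted p = 0.0013). This comparison rests on 1 GFP array per day, and some GFP values moved too: Slc16a3 was 0.75 lower on the GFP array of day 10 than on that of day 6, Egln3 0.48 lower and Pgam1 0.45 lower. Of the 35 genes, 25 were lower and 10 higher on the GFP array of day 10, with a median of -0.15 against -0.01 for all genes. A fit to the compared groups alone called 5 of the 35: Slc2a1, Pfkl, Tpi1, Pkm and Stc1 lost their call there (limma adjusted p of 0.082, 0.16, 0.085, 0.29 and 0.056). Markers moved with this comparison too: of the 12 fibroblast markers 1 shifted upwards and 7 downwards, and of the 8 epithelial markers 3 upwards and 0 downwards, and their part in it was not tested. Tpi1 also lost its call without SKO+Flag day 6 replicate 1 or 2 (0.058 and 0.063), and Pkm without any one of several arrays (0.059 to 0.096).

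**Figure D2:**
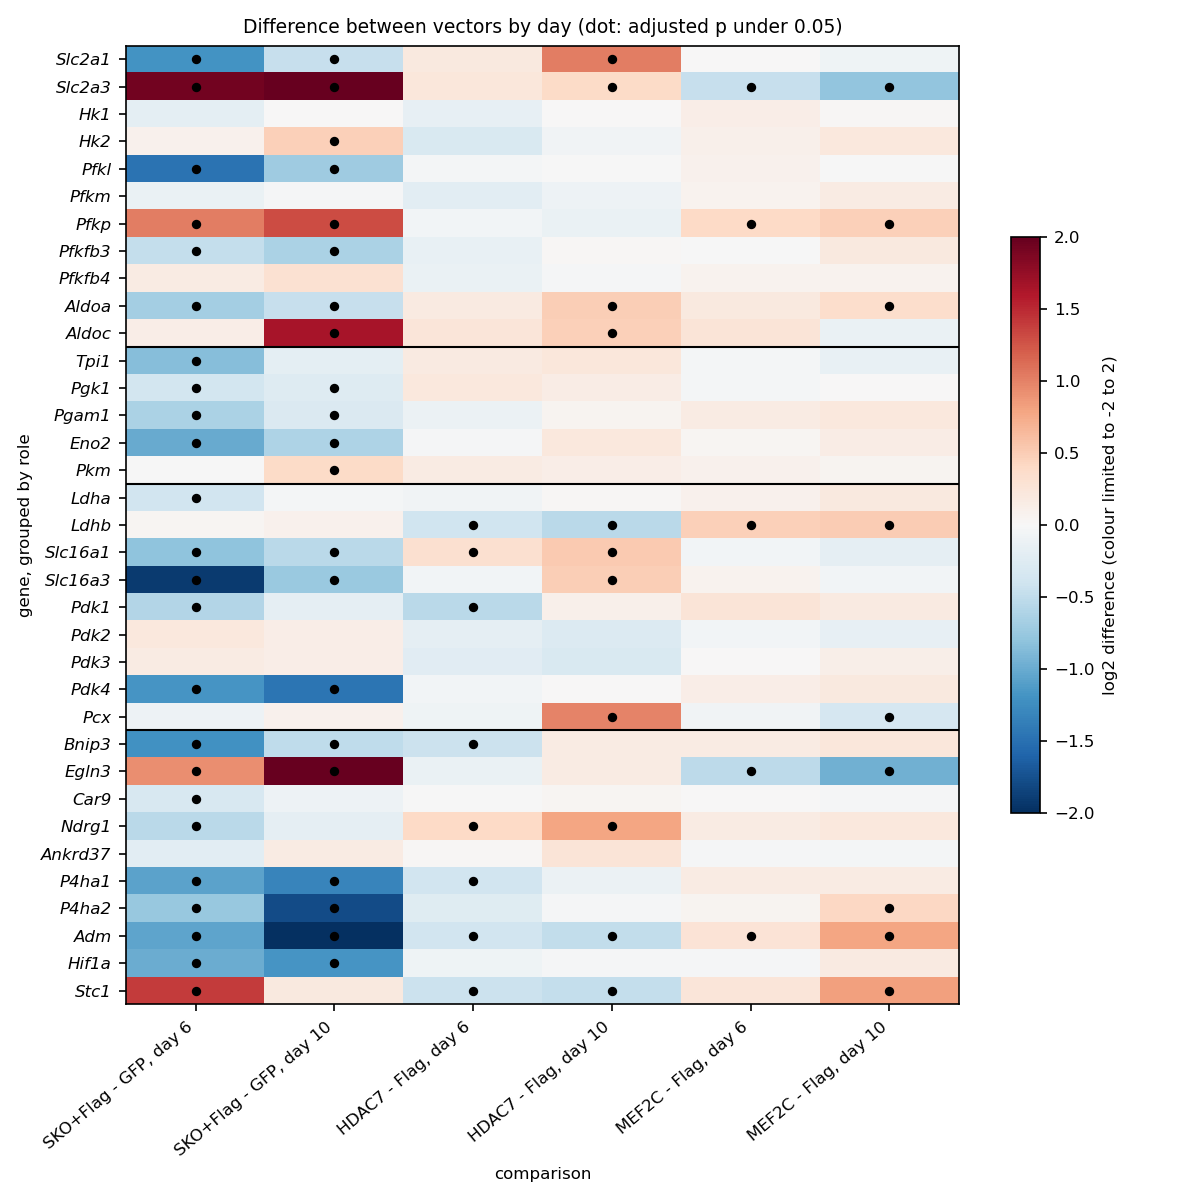
Colour gives the log2 difference (red, higher in the first-named group; blue, lower; limited to -2 to 2) of each of the 35 genes (rows, in 4 groups by role) for 3 comparisons at day 6 and day 10 (columns; HDAC7, MEF2C and Flag stand for the SKO groups), and a dot marks a limma adjusted p under 0.05. SKO+Flag against GFP holds most of the dots, Slc2a3 and Egln3 are red there and blue under MEF2C, and Adm is blue under HDAC7 and red under MEF2C.

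With HDAC7 added to SKO, the transporters Slc2a1, Slc2a3 and Slc16a1 rose and Ldhb, Adm and Stc1 fell. Averaged over the days (4 arrays against 4), 10 of 35 genes rose and 6 fell, 45.7%, where 10.9% of all genes tested were called (4.83% higher and 6.06% lower). In a fit to the genes above the median level alone 20.6% were called, and 19 of the 32 members among them (59.4%). Centring each array on its median turned the split of 10 higher and 6 lower into 7 and 8, and that of all genes from 963 and 1208 into 637 and 1519. The median difference of the 35 was -0.03, against 0.02 for all genes. Slc2a1 rose 1.52-fold (0.61 ± 0.05, limma adjusted p = 2.2e-05), Ndrg1 1.51-fold (0.60 ± 0.05, limma adjusted p = 1.4e-05), Pcx 1.37-fold (0.46 ± 0.06, limma adjusted p = 0.00054) and Slc16a1 1.34-fold (0.42 ± 0.05, limma adjusted p = 0.00046). For Slc2a1, Ndrg1 and Slc16a1 every SKO+HDAC7 array was above both SKO+Flag arrays of its day; for Pcx that held only at day 10. Smaller rises were those of Aldoc (0.36), Aldoa (0.34) and Slc2a3 (0.31), with limma adjusted p of 0.0093, 0.0013 and 0.0022.

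Ldhb read 7.51 and 7.55 with GFP, 7.64, 7.45, 7.60 and 7.68 with SKO+Flag, 7.20, 7.10, 7.02 and 7.20 with SKO+HDAC7, and 8.01, 8.04, 8.09 and 8.23 with SKO+MEF2C. Every SKO+HDAC7 array was below every SKO+Flag array, and Ldhb fell by 0.46 (-0.46 ± 0.06, limma adjusted p = 0.00066). Stc1 fell by 0.46 (limma adjusted p = 0.00054), Adm by 0.44 (limma adjusted p = 9.8e-05) and P4ha1 by 0.25 (limma adjusted p = 0.01), each in 8 of 8 pairs of arrays of the same day. Differences nearer the threshold were those of Slc16a3 (0.21), Pgk1 (0.18), Pkm (0.15), Pdk3 (-0.27) and Pfkm (-0.16). Their limma adjusted p was 0.017 to 0.049. Over 24 other settings, leaving out single arrays among them, these calls were lost in 10, 15, 18, 3 and 17, in that order. For all but Pdk3 the losses included settings that left out no array. Hif1a gave -0.06 ± 0.07 and missed the threshold (limma adjusted p = 0.68).

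At day 6 alone, 2 of 35 genes rose and 6 fell, against 4.58% of all genes called (1.82% higher, 2.76% lower). At day 10, 8 rose and 3 fell, against 7.27% (3.33% and 3.95%). After median centring the day 6 split was 1 higher and 7 lower, and after quantile normalization 3 and 5. Without SKO+Flag day 6 replicate 1 or 2 the day 6 count was 1 or 3, without SKO+HDAC7 day 6 replicate 1 or 2 it was 2 or 3, and with only the compared groups in the fit it was 2 at day 6 and 7 at day 10. At day 10, Slc2a1 was 2.02-fold higher with HDAC7 (1.02 ± 0.07, limma adjusted p = 1.4e-05), Pcx 1.99-fold (0.99 ± 0.08, limma adjusted p = 3.8e-05), Ndrg1 1.73-fold (0.79 ± 0.06, limma adjusted p = 3.4e-05) and Slc16a3 1.4-fold (0.49 ± 0.08, limma adjusted p = 0.0037). Pcx read 6.59 and 6.95 with GFP, 6.38, 6.61, 7.04 and 7.03 with SKO+Flag, 6.37, 6.45, 8.06 and 7.999 with SKO+HDAC7, and 6.36, 6.48, 6.64 and 6.75 with SKO+MEF2C, so that the SKO+HDAC7 pair of day 10 stood above all other arrays.

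The change of the HDAC7 effect between days passed the test for 2 of the 35 genes, both upwards, against 0.125% of all genes (0.0401% upwards). It was 0.82 ± 0.10 for Slc2a1 (limma adjusted p = 0.013) and 1.08 ± 0.12 for Pcx (limma adjusted p = 0.0077). Leaving out single arrays ended these calls at nearly the same sizes. Slc2a1 had 0.81 and 0.83 (limma adjusted p of 0.059 and 0.061) without SKO+Flag day 6 replicate 1 or 2, 0.78 (0.085) without SKO+HDAC7 day 6 replicate 1 and 0.76 (0.081) without SKO+HDAC7 day 10 replicate 2. Pcx had 1.04 (limma adjusted p = 0.06) and 1.11 (0.054) without those same SKO+HDAC7 arrays. In a fit to the compared groups alone neither passed (0.075 and 0.066); 9 of the 35 genes had an unadjusted p under 0.05 there. The background moved as well: of all genes 25 passed by limma, 483 without SKO+Flag day 10 replicate 2, 3 without SKO+HDAC7 day 6 replicate 1 and 0 without SKO+HDAC7 day 10 replicate 2 (1692 at an unadjusted p under 0.05), and 7 to 26 without any one of the other arrays left out in turn. For Pdk1, Bnip3 and Slc16a3 the change was 0.65 ± 0.15, 0.60 ± 0.15 and 0.55 ± 0.11 (limma adjusted p of 0.14, 0.17 and 0.1). The 8 epithelial markers moved with HDAC7 and with the day. Their mean level was 6.05 and 6.07 with SKO+Flag at day 6 (6.80 and 6.84 at day 10). With SKO+HDAC7 it was 6.32 and 6.33 at day 6 (7.43 and 7.53 at day 10). For HDAC7 against SKO+Flag as the mean of both days, where 10.9% of all genes were called, 4 of these 8 rose and 0 fell. In that same comparison 4 of the 12 fibroblast markers rose and 7 fell, and 3 of 5 measured neural markers rose and 0 fell. The neural markers had a mean level of 5.95 and 6.10 with SKO+Flag and 6.34 and 6.51 with SKO+HDAC7 at day 6. The part of these markers in the metabolic differences was not tested.

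With MEF2C added to SKO, the transporter Slc2a3 and the hydroxylase Egln3 fell, and Stc1, Adm, Ldhb and Pfkp rose. As the mean of both days, 8 of 35 genes rose and 2 fell, 28.6%, where 10.3% of all genes tested were called (5.49% higher and 4.82% lower). In a fit to the genes above the median level alone 20.9% were called, and 12 of the 32 members among them (37.5%). Egln3 fell 1.67-fold (-0.74 ± 0.06, limma adjusted p = 1.5e-05) and Slc2a3 1.55-fold (-0.63 ± 0.05, limma adjusted p = 1.8e-05), each below SKO+Flag on every array of its day. Stc1 rose by 0.53 (limma adjusted p = 0.0002), Adm by 0.53 (limma adjusted p = 2.7e-05), Ldhb by 0.50 (limma adjusted p = 0.00041) and Pfkp by 0.43 (limma adjusted p = 8.1e-05). The other Ldhb probe set gave 0.22 as the mean of both days, and at day 6 it gave 0.0047 where the first gave 0.48. Aldoa rose by 0.27 (limma adjusted p = 0.0046), as it did with HDAC7, a comparison that uses the same SKO+Flag arrays. The calls of P4ha2 (0.23), Pgam1 (0.19) and Ndrg1 (0.19) had limma adjusted p of 0.021 to 0.032. Over 24 other settings, leaving out single arrays among them, these calls were lost in 4, 8 and 6, in that order. For Pgam1 and Ndrg1 the losses included settings that left out no array. Slc2a1 did not pass (-0.04 ± 0.05, limma adjusted p = 0.73), nor did Hif1a (0.08 ± 0.07, limma adjusted p = 0.64). The Hk1 probe set with RefSeq mRNAs had a difference of -0.23 (limma adjusted p = 0.023), and the brighter one, at 0.08, had a limma adjusted p of 0.56.

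At day 6, 3 of the 35 genes rose with MEF2C and 2 fell, against 3.1% of all genes called (1.33% higher, 1.77% lower), and at day 10 6 rose and 3 fell, against 7.01% (4% and 3%). The limma count at day 6 was 3 without SKO+Flag day 6 replicate 2, 0 without SKO+MEF2C day 6 replicate 1 (7 at an unadjusted p under 0.05) and 3 without SKO+MEF2C day 6 replicate 2, and at day 10 it was 5 without SKO+MEF2C day 10 replicate 2. At day 10 Egln3 was 1.95-fold lower (-0.96 ± 0.08, limma adjusted p = 4.6e-05), Slc2a3 1.73-fold lower (-0.79 ± 0.07, limma adjusted p = 6.4e-05), Stc1 1.76-fold higher (0.81 ± 0.08, limma adjusted p = 0.00018) and Adm 1.73-fold higher (0.79 ± 0.06, limma adjusted p = 3.5e-05). By limma, 0 of the 35 genes passed for a change of the MEF2C effect between days, against 0.0853% of all genes (0.0451% upwards and 0.0401% downwards); 7 had an unadjusted p under 0.05. The nearest were Adm (0.52 ± 0.09, limma adjusted p = 0.067) and Stc1 (0.57 ± 0.12, limma adjusted p = 0.14), and without SKO+Flag day 10 replicate 2 the count was 2. As the mean of both days, where 10.3% of all genes were called, 5 of the 8 epithelial markers were lower with MEF2C and 0 higher. Their mean levels with SKO+MEF2C were 5.93 and 5.94 at day 6 and 6.24 and 6.31 at day 10. Of the 12 fibroblast markers 4 rose and 0 fell with MEF2C in that comparison. By day, 1 epithelial marker was lower at day 6 and 5 at day 10, with 0 higher. Of the fibroblast markers 2 were higher at day 6 and 5 at day 10, with 0 lower. The part of these markers in the differences was not tested.

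**Figure D3:**
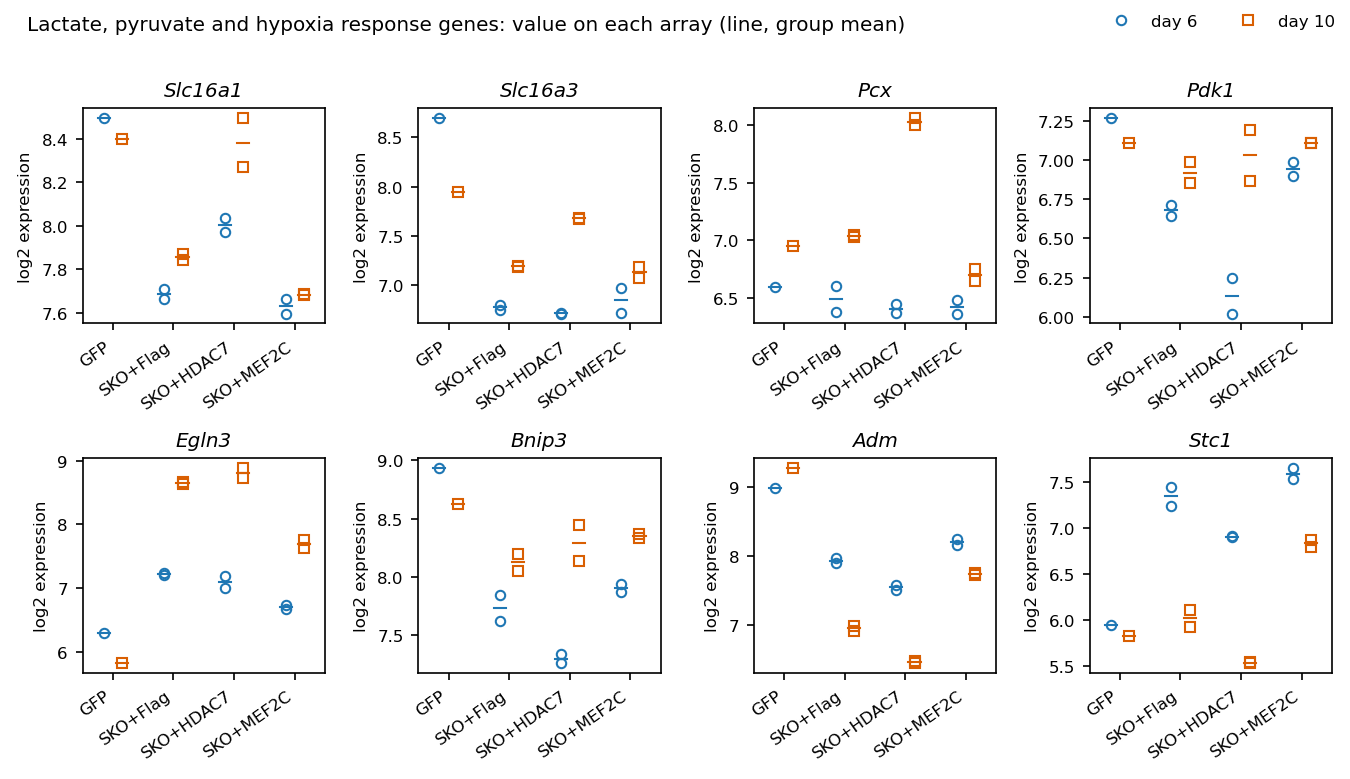
Log2 expression on each array (y axis) of 8 genes of lactate transport, pyruvate use and the hypoxia response, by vector (x axis); circles are day 6, squares are day 10, and short lines are group means. Pcx is highest with SKO+HDAC7 at day 10 (8.06 and 7.999), Egln3 is higher with SKO than with GFP and rises from day 6 to day 10 with SKO, and Adm and Stc1 fall from day 6 to day 10 in all 3 SKO groups.

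Set directly against each other, HDAC7 and MEF2C separated most of the genes. Between SKO+HDAC7 and SKO+MEF2C as the mean of both days, 10 of 35 genes were higher and 14 lower with HDAC7, 68.6%, where 22% of all genes tested were called (10.3% higher, 11.8% lower). In a fit to the genes above the median level alone 38.5% were called, and 24 of the 32 members among them (75%). The differences in this comparison do not use the SKO+Flag arrays, though these arrays enter the shared estimate of the spread behind the p-values. Of the 8 epithelial markers 5 were higher and 0 lower with HDAC7, and of the 12 fibroblast markers 4 and 7, and their part was not tested. Among those higher with HDAC7, Slc2a3 differed 1.92-fold (0.94 ± 0.05, limma adjusted p = 1.9e-07), Egln3 1.69-fold (0.75 ± 0.06, limma adjusted p = 3e-06) and Slc2a1 1.57-fold (0.65 ± 0.05, limma adjusted p = 3.4e-06). Pcx (0.66), Slc16a1 (0.54) and Ndrg1 (0.41) were also higher, with limma adjusted p of 1.1e-05, 2.4e-05 and 6.5e-05. Stc1 was 1.99-fold lower with HDAC7 (-0.99 ± 0.06, limma adjusted p = 4.9e-07), Adm 1.96-fold (-0.97 ± 0.04, limma adjusted p = 6e-08), Ldhb 1.94-fold (-0.96 ± 0.06, limma adjusted p = 9e-07) and Pfkp 1.44-fold (-0.53 ± 0.04, limma adjusted p = 5e-06). For Slc2a3, Slc2a1, Egln3, Stc1, Adm, Ldhb and Pfkp the arrays of the 2 vectors did not overlap within either day. The other Ldhb probe set gave -0.55 in this comparison and the first -0.96. Lower glycolysis was divided, with Tpi1 (0.29) and Pgk1 (0.19) higher and Pgam1 (-0.22) lower, at limma adjusted p of 0.0044, 0.015 and 0.0072. Without SKO+HDAC7 day 6 replicate 1, SKO+HDAC7 day 10 replicate 2 or SKO+MEF2C day 10 replicate 2 Pgk1 lost that call (limma adjusted p up to 0.06).

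Egln3 and Aldoc rose and Adm and Stc1 fell with time in all 3 SKO groups. From day 6 to day 10, 16 of 35 genes rose and 4 fell with SKO+HDAC7 (14.6% of all genes called, 7.86% higher and 6.7% lower), 10 rose and 3 fell with SKO+Flag (8.08% of all genes called, 3.75% higher and 4.33% lower), and 4 rose and 2 fell with SKO+MEF2C (3.08% of all genes called, 1.85% higher and 1.23% lower). The medians were 0.25, 0.10 and 0.10, against -0.03, -0.02 and -0.0033 for all genes. The SKO+HDAC7 count was 13 without day 6 replicate 1 or day 10 replicate 2, and a fit to the compared groups alone gave 7 for SKO+Flag. Egln3 rose 2.69-fold with SKO+Flag (1.43 ± 0.08, limma adjusted p = 3.9e-06), 3.3-fold with SKO+HDAC7 (1.72 ± 0.08, limma adjusted p = 4.2e-07) and 1.98-fold with SKO+MEF2C (0.98 ± 0.08, limma adjusted p = 0.00011). Aldoc rose 2.62-fold, 3.05-fold and 1.99-fold in that order (limma adjusted p of 1.7e-05, 3.2e-06 and 0.00041). Stc1 fell 2.5-fold, 2.58-fold and 1.69-fold (limma adjusted p of 7.4e-06, 2.1e-06 and 0.00062), and Adm 1.97-fold, 2.13-fold and 1.38-fold (limma adjusted p of 7.6e-06, 1.3e-06 and 0.0021). Of the 8 epithelial markers 7, 5 and 2 also rose with SKO+HDAC7, SKO+Flag and SKO+MEF2C and 0 fell. Of the 12 fibroblast markers 2 rose and 6 fell with SKO+HDAC7, 3 and 4 with SKO+Flag, and 1 and 1 with SKO+MEF2C; the part of these markers was not tested. Hif1a did not pass in any of the 3 groups (SKO+Flag, SKO+HDAC7 and SKO+MEF2C: -0.15, -0.08 and 0.06, limma adjusted p of 0.48, 0.66 and 0.93).

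Of the 9 pyruvate and lactate genes, 4 rose from day 6 to day 10 with SKO+HDAC7, 3 with SKO+Flag and 0 with SKO+MEF2C by limma (3 at an unadjusted p under 0.05), and 0 fell. In the same order 7.86%, 3.75% and 1.85% of all genes rose and 6.7%, 4.33% and 1.23% fell. Pdk2, among those called with SKO+Flag, lost its call in 13 of 24 other settings. With SKO+HDAC7, Pcx rose 3.08-fold (1.62 ± 0.08, limma adjusted p = 6.6e-07), Slc2a1 2.26-fold (1.17 ± 0.07, limma adjusted p = 1.7e-06), Bnip3 1.99-fold (1.00 ± 0.11, limma adjusted p = 0.00011), Slc16a3 1.95-fold (0.96 ± 0.08, limma adjusted p = 1.9e-05) and Pdk1 1.86-fold (0.89 ± 0.11, limma adjusted p = 0.00025). In SKO+Flag the same genes differed by 0.54, 0.35, 0.39, 0.42 and 0.24, and in SKO+MEF2C by 0.27, 0.27, 0.45, 0.28 and 0.17. With SKO+Flag the first 4 of these passed (limma adjusted p of 0.0019, 0.0091, 0.045 and 0.0076) and Pdk1 did not (0.24), and with SKO+MEF2C Bnip3 alone passed (0.047). The other Bnip3 probe set gave 0.12 with SKO+MEF2C, 0.35 with SKO+Flag and 0.92 with SKO+HDAC7. Over 24 other settings the Bnip3 call was lost in 7 with SKO+MEF2C and in 11 with SKO+Flag. Among the 5 genes, the change against SKO+Flag passed its own test for Slc2a1 and Pcx, as above. Pdk1 and Bnip3 were lower with SKO+HDAC7 than with SKO+Flag at day 6, with differences of -0.54 and -0.43. Those calls were lost in 3 and 11 of 24 other settings. At day 10 neither gene passed against SKO+Flag: Pdk1 read 6.87 and 7.19 against 6.85 and 6.99, and Bnip3 differed by 0.17. Their rise with SKO+HDAC7 thus started from a lower day 6 level. Ndrg1 rose with SKO+HDAC7 by 0.52 (limma adjusted p = 0.00034), and P4ha2 fell with SKO+Flag by 0.54 (limma adjusted p = 0.0015).

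**Figure D4:**
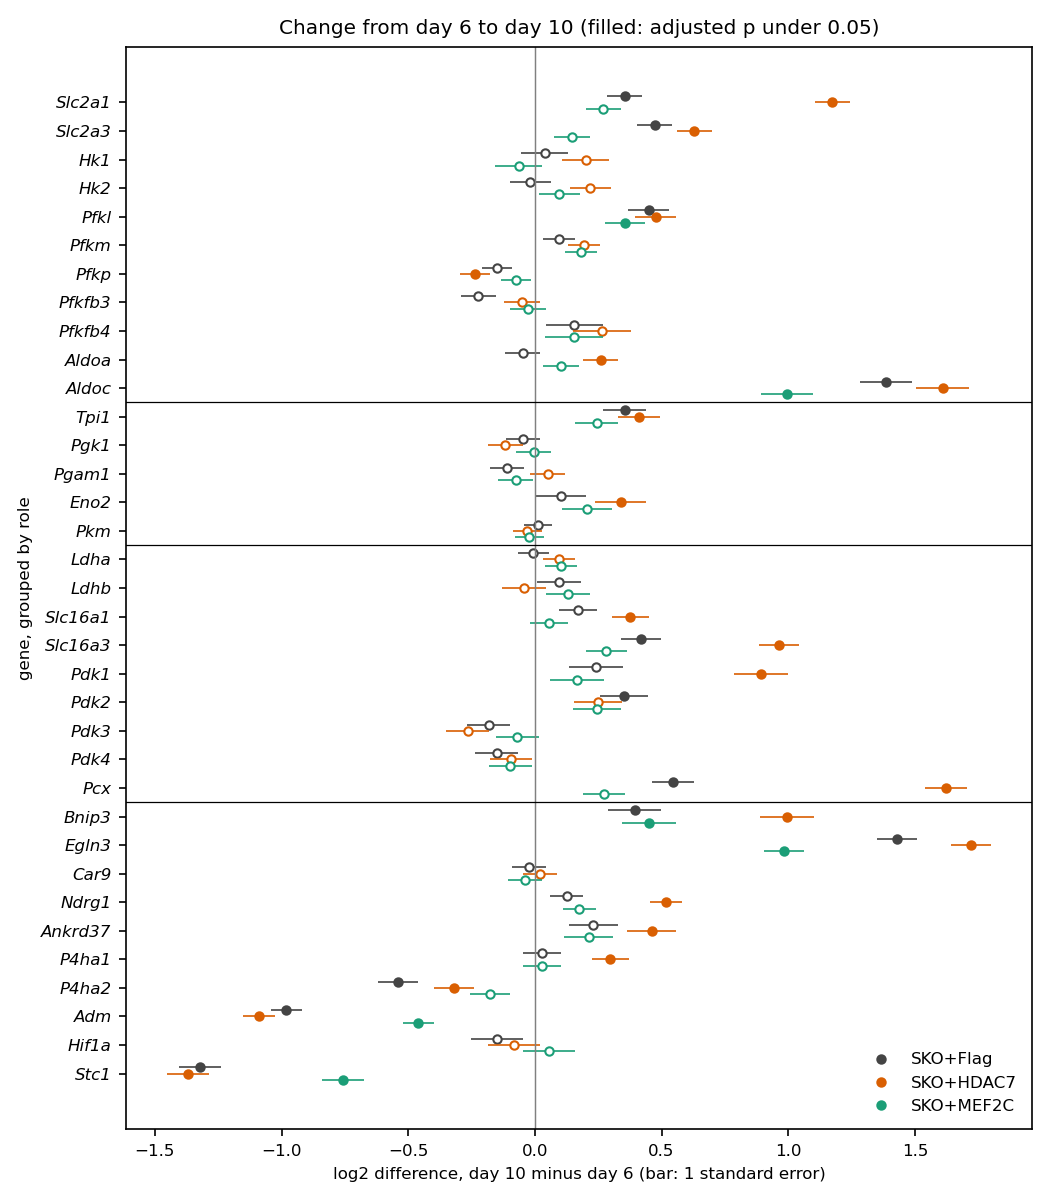
Log2 difference between day 10 and day 6 (x axis, bars 1 standard error) for the 35 genes (y axis, in 4 groups by role) in the 3 SKO groups; filled points have a limma adjusted p under 0.05. Egln3 and Aldoc lie to the right and Adm and Stc1 to the left in all 3 groups, and Pcx (1.62) and Slc2a1 (1.17) lie farther right with SKO+HDAC7 than with the other vectors.

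Further genes of the same pathways were taken from 2 other lists. Of 31 measured genes of glycolysis, gluconeogenesis and pyruvate oxidation, 8 rose and 7 fell with SKO+Flag (48.4% called, against 35.7% of all genes), with a median of -0.07. Pdp1, the phosphatase that reactivates pyruvate dehydrogenase, fell by 1.74 (limma adjusted p = 3.4e-09), and Bpgm, bisphosphoglycerate mutase, rose by 0.81 (limma adjusted p = 4.1e-05). Bpgm was lower with HDAC7 (-0.27 ± 0.08, limma adjusted p = 0.045) and higher with MEF2C (0.51 ± 0.08, limma adjusted p = 0.0016), as was Eno3, the muscle enolase (-0.53 ± 0.05, limma adjusted p = 5.9e-05; 0.42 ± 0.05, limma adjusted p = 0.00026). Under HDAC7 0 of 31 rose and 3 fell, and under MEF2C 4 of 31 rose and 0 fell, shares of 9.68% and 12.9% that lie near the 10.9% and 10.3% of all genes.

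Of 39 measured genes of the HIF pathway and its targets, 12 rose and 17 fell with SKO+Flag (74.4% called, against 35.7% of all genes; median -0.13). Epas1, which encodes the other main oxygen-regulated subunit, HIF-2 alpha, rose by 2.37 (limma adjusted p = 3.1e-10) where Hif1a fell. It was lower with HDAC7 (-0.39 ± 0.05, limma adjusted p = 0.00063) and with MEF2C (-0.79 ± 0.05, limma adjusted p = 5.5e-06) than with SKO+Flag. Under HDAC7 1 of 39 rose and 7 fell (all genes 10.9%); those that fell included Plod2, a lysyl hydroxylase of collagen (-0.54, limma adjusted p = 0.00079), and Cited2, which competes with HIF for its coactivators (-0.51, limma adjusted p = 5e-05). Under MEF2C 3 of 39 rose and 4 fell (all genes 10.3%). From day 6 to day 10, 11 of 39 rose and 2 fell with SKO+HDAC7 (all genes 14.6%), 3 of 39 rose and 4 fell with SKO+Flag (all genes 8.08%) and 2 of 39 rose and 0 fell with SKO+MEF2C (all genes 3.08%). With SKO+HDAC7 the rises included Mxi1 (0.68), Higd1a (0.66), the adenylate kinase Ak4 (0.65) and the histone demethylase Kdm3a (0.60), with limma adjusted p of 0.00023, 0.0018, 0.0068 and 0.00047.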

How the data were processed

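Total RNA of 14 samples was hybridised to Affymetrix whole-transcript arrays as biotin-labelled cDNA, per the labels' protocols. The authors deposited 1 log2 value per probe set and array. The submitters' processing notes name RMA, which corrects background and normalizes by quantiles, and Partek, with no version. No build is given in the sources used here. The deposited values were used without further normalization or filter, and no detection calls were used; the number of arrays limits the precision.

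Of 28815 probe sets, 21780 had 1 gene symbol, 1605 several and 5430 none here. Symbols were checked through Entrez IDs against RefSeq (GRCm38.p6), where 21689 matched, 91 did not and 0 changed. Probe sets with several symbols were left out. In R 4.3.3, limma 3.58.1 (lmFit, eBayes) was fitted to the 8 groups of vector and day over all 19935 genes (6 residual and 4.71 prior degrees of freedom), with Benjamini-Hochberg adjustment in each of 16 comparisons. The procedure was tested on simulated data. Members and lists (4 further lists, 120 of 128 entries measured) were chosen with earlier results of these data known. Values on each array are printed for members called in a comparison with a difference of at least 0.5, and for Hif1a; of the further lists, up to 4 called genes with the largest differences are named. Alternatives were a trend and robust prior, array weights, fitting the compared groups alone, renormalizing by quantiles or centring arrays on their medians, averaging probe sets, genes above the median level, the experiment number as a replicate block, and leaving out each array; preferring probe sets with RefSeq mRNAs was added after seeing the data. Experiment numbers were not used to pair the arrays in the main fit. The correlation of same-numbered deviations exceeded 0.1 in 4 of 15 pairs of groups (-0.24 to 0.18). Within day 6 it was -0.09 to 0.18 (1 of 3 pairs over 0.1), and within day 10 it was 0.05 to 0.15 (2 of 3).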

Additional observations from a re-analysis of the deposited data

Results flagged for a closer look

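The effect of a vector differed between day 6 and day 10 for 11 genes, tested as the change of the difference from day 6 to day 10. For HDAC7 against the empty vector these were Slc2a1 (0.20 ± 0.07 at day 6 and 1.02 ± 0.07 at day 10, a change of 0.82 ± 0.10, limma adjusted p = 0.013) and Pcx (-0.08 ± 0.08 and 0.99 ± 0.08, a change of 1.08 ± 0.12, limma adjusted p = 0.0077). For SKO+Flag against GFP, with 1 GFP array per day, Egln3 went from 0.93 to 2.83 (change 1.91), Aldoc from 0.14 to 1.65 (1.52), Slc16a3 from -1.92 to -0.75 (1.17) and Pfkl from -1.47 to -0.71 (0.76). Slc2a1 went from -1.20 to -0.46 (0.73), Tpi1 from -0.85 to -0.19 (0.66) and Pkm from -0.01 to 0.39 (0.40). Changes in the other direction were those of Adm, from -1.05 to -2.33 (-1.28), Stc1, from 1.40 to 0.19 (-1.21), and P4ha2, from -0.76 to -1.79 (-1.03). The limma adjusted p of these 10 lay between 2.3e-05 and 0.042, and Pkm, the nearest to the threshold, reached 0.29 under other settings. No group had 4 or more arrays of 1 day, so single arrays were not tested as outliers.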

How the results depend on the processing

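No difference called for the 35 genes changed sign under any of the settings run, and 138 of 206 such differences also kept their call throughout. Several settings could not change a difference, only its p-value. These were the trend and robust prior, the compared groups alone, genes above the median level, and leaving out an array outside the comparison. Counts of called genes moved by over 1.5 times in a fit to the compared groups alone, which has fewer arrays to estimate the spread: from 8 to 2 (HDAC7, day 6), 11 to 7 (HDAC7, day 10), 13 to 7 (day 10 against day 6, SKO+Flag), 2 to 0 (change of the HDAC7 effect between days by limma, with 9 at an unadjusted p under 0.05) and 10 to 5 (change of the SKO effect). With genes above the median level alone the change of the MEF2C effect had 1 call, where it had 0. Leaving out each array gave ranges of 27 to 28 (SKO+Flag against GFP), 11 to 16 (HDAC7), 7 to 11 (MEF2C), 19 to 25 (HDAC7 against MEF2C), 23 to 25 and 19 to 21 (SKO+Flag against GFP, day 6 and day 10), 1 to 9 and 9 to 12 (HDAC7), 0 to 5 and 5 to 9 (MEF2C), 10 to 13, 13 to 20 and 4 to 6 (day 10 against day 6 with SKO+Flag, SKO+HDAC7 and SKO+MEF2C), and 0 to 2, 0 to 2 and 8 to 10 (change of the HDAC7, MEF2C and SKO effects). Without a GFP array the comparisons with GFP at that day, as the mean of days and their change could not be fitted. With the experiment number as a replicate block over both days or within each day, the counts stayed within 1.5 times of those without it (for HDAC7, 16 and 15 against 16), though over all genes the change of the HDAC7 effect went from 25 to 15 calls with either block. Single arrays, 2 a group and 1 for GFP, limit what can be called at 1 day, and Car9 and the SKO values of Pdk4 lay below the array medians. Over all genes, the compared groups alone gave 375 calls against 914 (HDAC7, day 6), 501 against 1450 (HDAC7, day 10), 351 against 618 and 502 against 1397 (MEF2C), 504 against 1610 (day, SKO+Flag) and 3012 against 5359 (SKO, day 10); the cause was not tested.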

Other observations

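Of 40 measured genes of the TCA cycle and oxidative phosphorylation, 10 rose and 3 fell with SKO+Flag against GFP (32.5% called, against 35.7% of all genes), with a median of 0.01. Cox4i2, the alternative cytochrome oxidase subunit known for its induction by hypoxia, rose by 1.77 (limma adjusted p = 5.4e-09), and Mdh1, cytosolic malate dehydrogenase, by 0.85 (limma adjusted p = 7.4e-08). Under HDAC7 2 of 40 rose and 1 fell, with Cox4i2 at -0.48 (limma adjusted p = 0.00031), and under MEF2C 2 of 40 rose and 1 fell; both shares (7.5%) lie below the 10.9% and 10.3% of all genes.

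Of 10 measured genes of the pentose phosphate pathway, which makes NADPH and ribose, 3 rose and 3 fell with SKO+Flag, where 35.7% of all genes were called. H6pd, the dehydrogenase of the endoplasmic reticulum, fell by 0.94 (limma adjusted p = 1e-06), Tkt, transketolase, by 0.43 (limma adjusted p = 0.00016), and Prps2, which makes the ribose donor of nucleotides, rose by 0.54 (limma adjusted p = 6.2e-05). Under HDAC7 Prps1 was the 1 gene of 10 called, near the 10.9% of all genes (0.26 ± 0.07, limma adjusted p = 0.043), and under MEF2C limma called 0 of 10, with 2 at an unadjusted p under 0.05.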
